A study of Mus musculus with 40 samples.

Results

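Bcl6 encodes a transcriptional repressor of the BTB-zinc finger family, and Bcl6b encodes its closest paralogue. Both genes were examined for peaks of the corepressors SMRT and NCoR and of the histone deacetylase HDAC3 in fed mouse liver. A peak was a member when its centre lay inside either gene or within 250 kb of it in the GENCODE annotation of mm10. By this rule 83 of the 60254 peaks in the 3 lists were members, of which 57 lay near Bcl6 and 26 near Bcl6b. The rule used positions only.

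The study used chromatin immunoprecipitation with sequencing (ChIP-seq) to map where BCL6 and its partners occupy the liver genome during feeding and fasting. The series holds 40 samples in 18 groups, and the lists analysed here come from the 3 fed WT groups, of 3 libraries each. The labels call these livers wild type and give the genotype Bcl6 fl/fl, male C57BL/6 mice fed ad libitum, without the Albumin-cre used elsewhere in the study for deletion in hepatocytes. Their age was not given in the labels. Bcl6 was therefore floxed but not deleted in every library used here, with the loxP sites engineered between exons 5 and 6 of the gene under study. Livers hold several cell types, and a peak cannot be assigned to hepatocytes or to another of them. The authors deposited 10654 peaks for SMRT, 35138 for NCoR and 14462 for HDAC3, each as an interval with no height, score or per-animal value. The sequencing depth behind a peak is therefore unknown, and no difference between animals or conditions could be tested. BCL6 peaks and the 31 other libraries were not analysed here.

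BCL6 has an N-terminal BTB domain that binds the corepressors SMRT, NCoR and BCOR, and C-terminal zinc fingers that recognise sequences resembling those of STAT factors. SMRT and NCoR are large related scaffolds that bring HDAC3 to chromatin and activate it, so that acetyl groups are removed from histones. BCL6 is best known for directing germinal centre B cells and follicular helper T cells, and in B cells it is known to bind its own gene and repress it. BCL6B has a similar BTB domain and nearly the same zinc fingers. In liver, unliganded nuclear receptors are another well known means by which SMRT and NCoR reach DNA.

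The 6 stretches of sequence printed here carry the positions described further on, read from GRCm38 (mm10) on the plus strand. Bcl6 (ENSMUSG00000022508.5) runs from 23965052 to 23988852 on chromosome 16 and is transcribed from the minus strand, so coordinates rise with distance upstream of its start site. The first sequence is the NCoR interval of the site inside the gene that all 3 lists share, at chr16:23972154-23972382, with the bases of coding exon 5 in capitals and those of intron 5 in lower case.
Bcl6 +16.6 kb, exon 5: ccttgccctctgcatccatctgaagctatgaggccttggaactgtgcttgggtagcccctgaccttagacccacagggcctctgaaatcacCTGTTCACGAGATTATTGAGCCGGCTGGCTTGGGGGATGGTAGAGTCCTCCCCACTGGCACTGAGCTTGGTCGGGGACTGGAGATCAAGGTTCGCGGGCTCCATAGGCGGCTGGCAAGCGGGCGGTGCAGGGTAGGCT
In the next 4 upstream intervals, capitals mark matches to the motifs that the sites were searched for. They are the shared site nearest to the start site, at chr16:23996436-23996664, and 3 sites of NCoR alone, at chr16:24012063-24012291, chr16:24034493-24034721 and chr16:24080618-24080846.
Bcl6 -7.7 kb, DR1 element then BCL6/STAT match: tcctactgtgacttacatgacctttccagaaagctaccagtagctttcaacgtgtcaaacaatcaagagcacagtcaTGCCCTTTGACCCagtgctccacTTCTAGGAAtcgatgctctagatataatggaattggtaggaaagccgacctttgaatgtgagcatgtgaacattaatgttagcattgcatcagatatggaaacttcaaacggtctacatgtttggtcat
Bcl6 -23.3 kb, BCL6/STAT match then HNF4 half-site: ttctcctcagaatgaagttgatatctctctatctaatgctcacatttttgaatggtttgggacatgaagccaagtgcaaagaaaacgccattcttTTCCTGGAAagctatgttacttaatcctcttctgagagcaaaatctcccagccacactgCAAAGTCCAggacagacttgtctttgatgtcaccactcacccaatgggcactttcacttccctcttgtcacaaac
Bcl6 -45.8 kb, a pair of HNF4 half-sites: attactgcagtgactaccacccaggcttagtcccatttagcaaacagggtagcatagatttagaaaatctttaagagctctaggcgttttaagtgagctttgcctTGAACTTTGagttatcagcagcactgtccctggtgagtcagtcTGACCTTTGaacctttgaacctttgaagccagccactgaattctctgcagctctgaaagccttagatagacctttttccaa
Bcl6 -91.9 kb, BCL6/STAT match: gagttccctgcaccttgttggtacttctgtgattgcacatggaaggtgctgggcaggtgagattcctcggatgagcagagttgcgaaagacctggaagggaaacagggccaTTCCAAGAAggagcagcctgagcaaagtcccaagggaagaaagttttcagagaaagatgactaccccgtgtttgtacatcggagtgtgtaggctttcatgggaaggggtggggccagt
The last is the one shared site near Bcl6b, at chr11:70284940-70285168, with a C/EBP match and an HNF4 half-site in capitals.
Bcl6b -55.3 kb: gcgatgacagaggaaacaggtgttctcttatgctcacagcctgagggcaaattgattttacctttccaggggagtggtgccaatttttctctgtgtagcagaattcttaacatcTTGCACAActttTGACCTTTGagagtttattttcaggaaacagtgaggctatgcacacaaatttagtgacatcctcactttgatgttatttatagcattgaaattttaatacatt

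The Bcl6 gene is 23801 bp long with 10 exons, and its window of 524 kb holds 4 protein-coding genes. It contained 12 SMRT, 30 NCoR and 15 HDAC3 peaks, or 22.9, 57.3 and 28.6 peaks per Mb. Centres within 200 bp of each other were joined into 31 sites. At 9 sites all 3 lists had a peak, 13 were NCoR alone, 6 were NCoR with HDAC3, 2 were NCoR with SMRT and 1 was SMRT alone. The sites were unevenly placed, with 26 upstream of the start site, 3 inside the gene and 2 downstream of it.

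**Figure D1:**
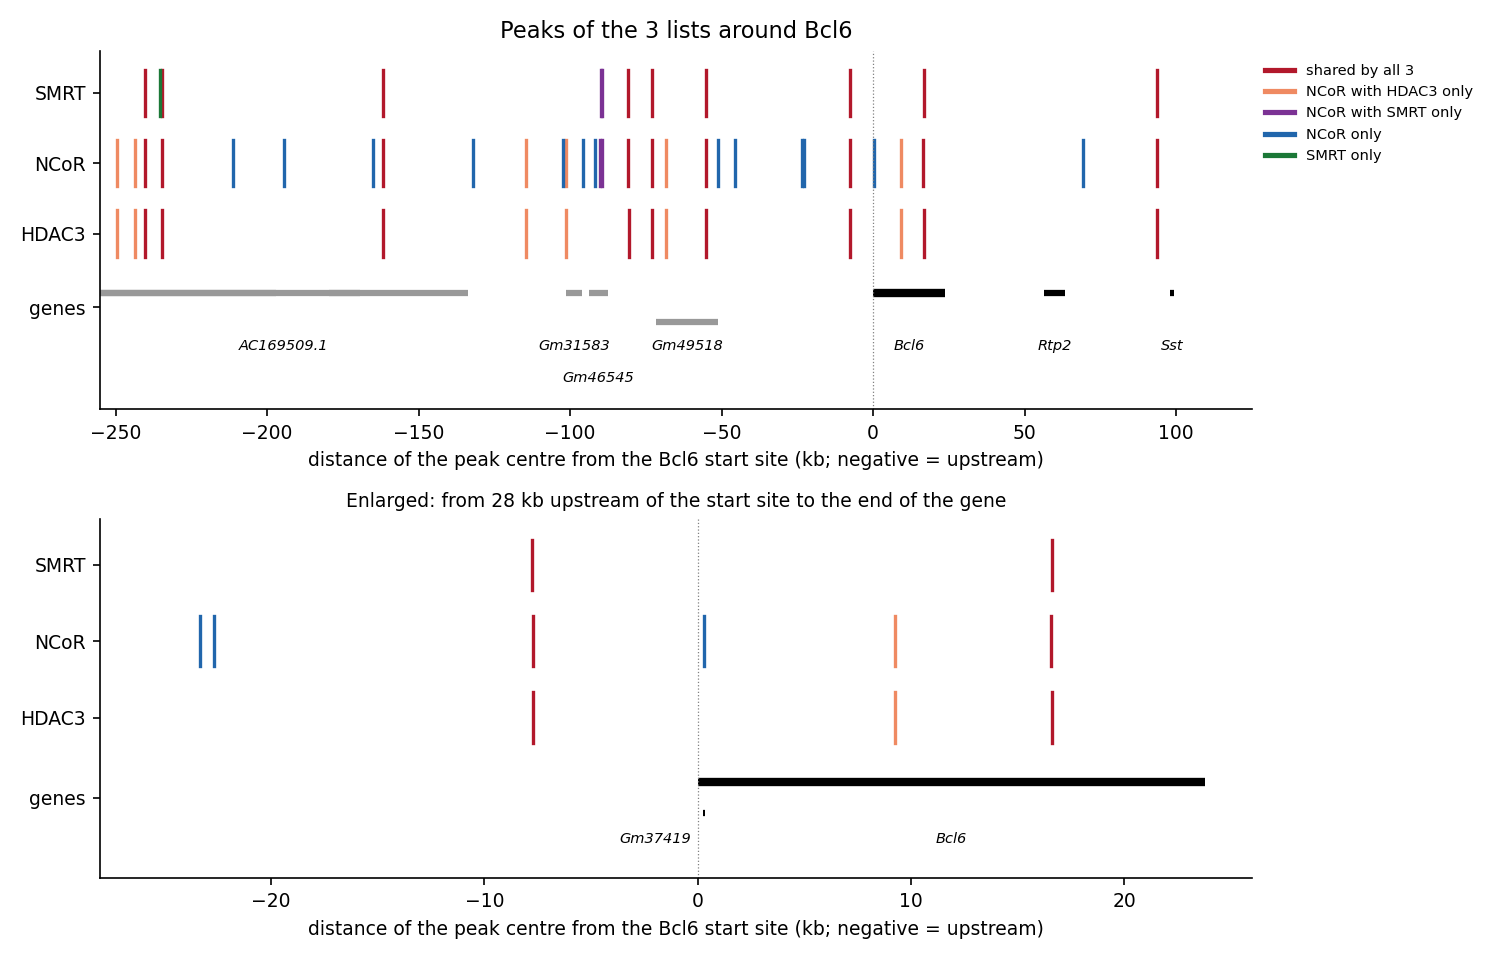
Peak centres of the 3 lists by distance from the Bcl6 start site in kb (negative is upstream), with protein-coding genes in black and noncoding genes in grey, those transcribed the same way as Bcl6 on the upper line. The upper panel shows 26 of the 31 sites to the left of the start site, and the lower panel shows the shared sites at -7.7 and +16.6 kb on either side of it.

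Inside the gene, NCoR had 3 peaks, HDAC3 had 2 and SMRT had 1. At least 1 NCoR peak lay in the body of 35.5% of the 21938 protein-coding genes, and 13.1% held a site shared by all 3 lists, as Bcl6 did. The NCoR centre of the shared site was 16584 bp downstream of the start site, in exon 5. The SMRT and HDAC3 centres of this site lay 25 and 34 bp to the lower-coordinate side of it, inside intron 5. Of the 229 bases of its NCoR interval, 138 were coding sequence of exon 5 and 91 belonged to intron 5. The NCoR centre was 23 bp from the end of the exon at which intron 5 begins. This is the part of the gene next to which the loxP sites of the control animals were placed, and their part in the peak was not tested. The interval was 60.3% G and C, the highest value among the 30 NCoR intervals of the window, whose median was 46.8%, and it held none of the 9 motifs searched.

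The second site inside the gene was centred 9255 bp downstream of the start site in intron 1 and was occupied by NCoR with HDAC3. RefSeq lists a second start site for Bcl6 at 23981283, which is 7569 bp into the gene, and this site was 1686 bp downstream of it. The third, of NCoR alone, was centred 283 bp downstream of the first start site, at chr16:23988455-23988683. The nearest SMRT and HDAC3 centres to the start site were 7752 and 7724 bp from it. An NCoR peak lay nearer to the start site at 12.9% of protein-coding genes, whose median distance was 20000 bp. The centre of this peak was 6 bp outside exon 1, in intron 1, and 109 of its 229 bases belonged to the untranslated exon 1. It also overlaps Gm37419, a protein-coding model from 23988482 to 23988595 on the opposite strand, and 41% of its bases are soft-masked as repeats.

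The NCoR interval at the start of Bcl6 held 4 separate matches to the BCL6/STAT motif within 200 bp of sequence around the centre. They fell between 20 and 92 bp from the centre, all in exon 1. They are shown here in 3 short stretches, at chr16:23988586-23988600, chr16:23988612-23988641 and chr16:23988650-23988664, with the matches in capitals.
Exon 1 match 1: cctTTCCTAGAAact
Exon 1 matches 2 and 3: cacTTCTAAGAAccccagTTCTAAGAAtca
Exon 1 match 4: caaTTCTCGGAAttt
Only the match nearest to the centre lay within the central 100 bp. Among all 35138 NCoR peaks, 1353 (3.85%) held at least 1 such match, 47 (0.134%) held at least 2, and 2 held 4. The other peak with 4 was centred 1 bp from the start site of Cish, a well known target gene of STAT5, at chr9:107296595-107296823, and it was shared by all 3 lists. Cish was singled out after the values were seen. A match is a description of the letters and not evidence of binding by BCL6 or by a STAT factor.

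Upstream of Bcl6 the next protein-coding gene is Lpp, which encodes a focal adhesion protein. The 405 kb between them held 35 NCoR, 17 HDAC3 and 14 SMRT peaks, which formed 37 sites, 10 of them shared by all 3 lists. The annotation places 8 noncoding genes in this stretch and no protein-coding one. Within 250 kb, 7 of the 26 upstream sites were shared, 11 were NCoR alone, 5 were NCoR with HDAC3, 2 were NCoR with SMRT and 1 was SMRT alone. Of all NCoR peaks in the list, 24.9% were shared by all 3 lists and 56.1% were NCoR alone. By 50-kb steps away from the start site, the upstream sites numbered 4, 9, 4, 3 and 6. The step between 50 and 100 kb held 9 sites, 3 of them shared.

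The upstream site nearest to the gene was shared by all 3 lists and centred 7698 bp before the start site. SMRT and HDAC3 were centred 54 and 26 bp to the higher-coordinate side of NCoR. Its interval held a BCL6/STAT match between -14 and -6 bp from the NCoR centre and a DR1 element, the spaced repeat bound by PPAR-RXR, HNF4 and related receptors, between -37 and -25 bp. Both motifs occurred together in 23 of all 35138 NCoR peaks (0.0655%) and in 9 of the 8739 NCoR peaks shared by all 3 lists (0.103%). This pair was picked because the site held it. At least 2 of the 9 motifs searched, whichever they were, occurred in 4.47% of all NCoR peaks and 5.97% of the shared ones. A shared NCoR peak lay nearer to the start site at 9.11% of protein-coding genes, whose median distance was 107000 bp.

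A pair of NCoR sites with neither partner followed at 22667 and 23325 bp upstream, 658 bp apart. The first held an HNF4 half-site, part of the element bound by HNF4A, a factor that maintains hepatocyte identity. The second held a BCL6/STAT match 11 to 19 bp from the centre and an HNF4 half-site 40 to 48 bp to its other side, as printed above. A combination of these motifs was found in 108 NCoR peaks (0.307%). This pair too was picked because the site held it, and at least 2 of the 9 motifs occurred in 4.47% of NCoR peaks. The next NCoR site, 45755 bp upstream, was again without SMRT and HDAC3 and held HNF4 half-sites at -9 to -1 bp and 34 to 42 bp from its centre.

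Beyond that the sites lay within or beside long noncoding RNA genes. NCoR alone at -51200 bp, all 3 lists at -55062 bp and NCoR with HDAC3 at -68390 bp fell in the intron of Gm49518, a lincRNA transcribed away from Bcl6. The Gm49518 start site is at -51054 bp, so the peak at -51200 bp lay close to it, past the 100 bp taken as promoter. The site at -68390 bp held a FOX match, the motif of the forkhead factors that open liver enhancers. Shared sites at -72838 and -80786 bp lay in no annotated gene and held none of the motifs.

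The intron of the lincRNA Gm46545 held 3 neighbouring NCoR sites. Those at -89376 and -89987 bp had SMRT without HDAC3, and they were the only sites of this class in the Bcl6 window. The first held 2 HNF6/CUX2 matches of the same 8 letters, 35 to 42 and 44 to 51 bp from its centre. HNF6 and CUX2 have related DNA-binding domains. The third, at -91880 bp, was NCoR alone with a BCL6/STAT match across its centre, from -3 to 5 bp.

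Further sites followed at -95741 bp, where NCoR alone held a match to the motif of the ERR receptors, and at -101354 bp. The latter was occupied by NCoR with HDAC3 at the promoter of the lincRNA Gm31583, and held an HNF4 half-site. NCoR alone at -102343 and -132114 bp and NCoR with HDAC3 at -114621 bp lay in no gene and held none of the motifs. All sites beyond that fell in AC169509.1, a transcribed pseudogene of which intron 2 covers the remaining part of the window.

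In that intron, shared sites lay at -161815, -234734 and -240363 bp, and the first 2 of them held an HNF4 half-site. NCoR alone lay at -165094, -194550 and -211101 bp, the last with C/EBP and HNF6/CUX2 matches. At -235304 bp, 570 bp from a shared site, was the SMRT peak without a partner, the shortest distance between neighbouring sites in the window. SMRT peaks alone made up 3.35% of the SMRT list. NCoR with HDAC3 at -243728 and -249621 bp ended the window, and the next peak outside it, of HDAC3 at a shared site, was 251961 bp from the gene.

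Downstream of Bcl6 were 2 sites. NCoR alone was centred 69251 bp from the start site, and 11193 bp from that of Rtp2, which encodes a receptor-transporting protein. A shared site lay at 93550 bp, 4344 bp from the start site of Sst, the gene of the hormone somatostatin. No peak of any list lay in the remaining part of the downstream flank, and the first one beyond it was 358252 bp from the gene.

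Where an interval was computed, the partner shares of the Bcl6 peaks could not be told apart from those of the lists as wholes. Of the 30 NCoR peaks, 9 were shared by all 3 lists (30%, exact 95% binomial interval 14.7 to 49.4), against 24.9% of all NCoR peaks. NCoR alone made up 13 (43.3%, 25.5 to 62.6) against 56.1%, NCoR with HDAC3 made up 6 against 14.8%, and NCoR with SMRT made up 2 against 4.16%. Of the 12 SMRT peaks 9 were shared (75%, 42.8 to 94.5), against 81.9% of the SMRT list. Of the 15 HDAC3 peaks 9 were shared (60%, 32.3 to 83.7), against 60.4%. No HDAC3 peak stood alone, which allows a share of up to 21.8%, and the share in the HDAC3 list was 2.95%. Each interval includes the share in its list. With so few peaks the intervals are wide, so a difference was not detectable and likeness is not shown either. The intervals cover counting error only and treat neighbouring peaks as independent.

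**Figure D2:**
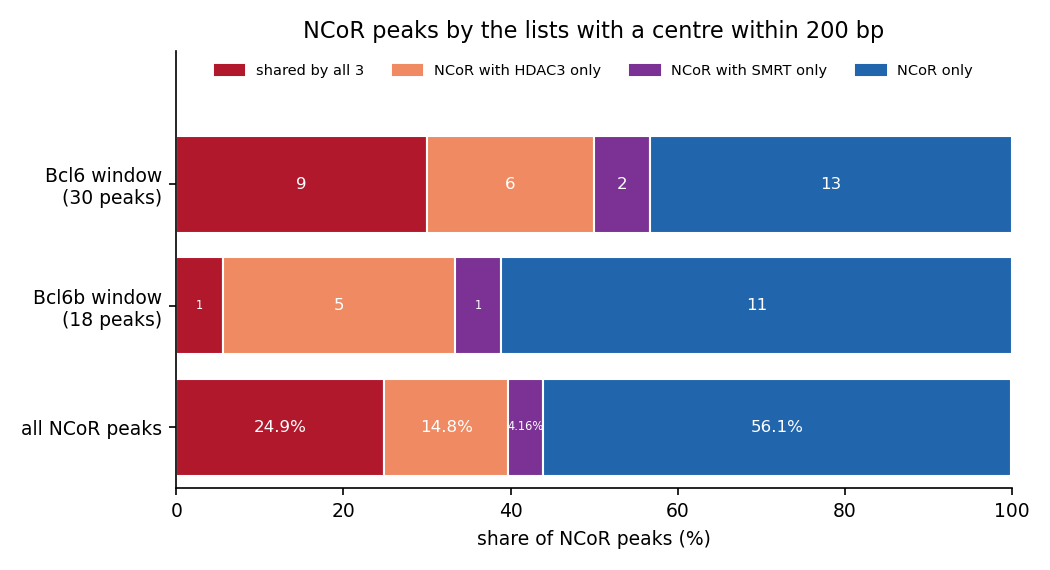
Share of NCoR peaks (%) by the other lists that had a centre within 200 bp, for the Bcl6 window (30 peaks), the Bcl6b window (18 peaks) and all 35138 NCoR peaks, with counts in the bars of the windows and percentages in the bar of the list. Shared peaks take 9 of 30 near Bcl6 and 1 of 18 near Bcl6b.

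Within the 9 shared sites the 3 centres spanned 16 to 105 bp, with a median of 54 bp. Over the 8764 shared sites of the genome the median span was 38 bp with quartiles of 23 and 58 bp. The tightest was at -55062 bp, where HDAC3 and NCoR had the same centre and SMRT lay 16 bp away. The widest was at -234734 bp, where SMRT and HDAC3 were centred 57 and 105 bp to the higher-coordinate side of NCoR. Neighbouring sites in the window were a median of 7640 bp apart, with a range from 570 to 52667 bp. Gaps that cross the window edge were left out, such as the peak-free stretch from 69750 to 358252 bp downstream of the gene. Over the genome, with all gaps counted, the median gap was 14400 bp with quartiles of 5150 and 47500 bp.

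By annotation, 2 of the 30 NCoR peaks were in a promoter, taken as 1000 bp before to 100 bp after a start site, 16 were intragenic and 12 intergenic. In the NCoR list 12.8% were in promoters, 57.1% intragenic and 30% intergenic. Both promoter peaks belonged to other genes than Bcl6, namely Gm37419 and Gm31583, and 14 of the intragenic peaks lay in noncoding genes. The nearest start site of a protein-coding gene was that of Bcl6 for 20 NCoR peaks, 5 of them shared, and for 7 SMRT and 8 HDAC3 peaks. All 3 NCoR peaks inside Bcl6 were nearest to the start site of Gm37419 instead. Without this short model, an alternative chosen after seeing the data, Bcl6 was the nearest gene of 23 NCoR peaks.

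Bcl6b (ENSMUSG00000000317.11) lies at chr11:70224128-70229798 on the minus strand, is 5671 bp long and has 9 exons. Its window of 506 kb holds 25 protein-coding genes, against 4 near Bcl6. It contained 2 SMRT, 18 NCoR and 6 HDAC3 peaks, or 3.96, 35.6 and 11.9 peaks per Mb, which formed 18 sites. Of these, 11 were NCoR alone, 5 were NCoR with HDAC3, 1 was NCoR with SMRT and 1 was shared by all 3 lists. No peak of any list lay in the gene, 12 sites were downstream and 6 upstream.

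**Figure D3:**
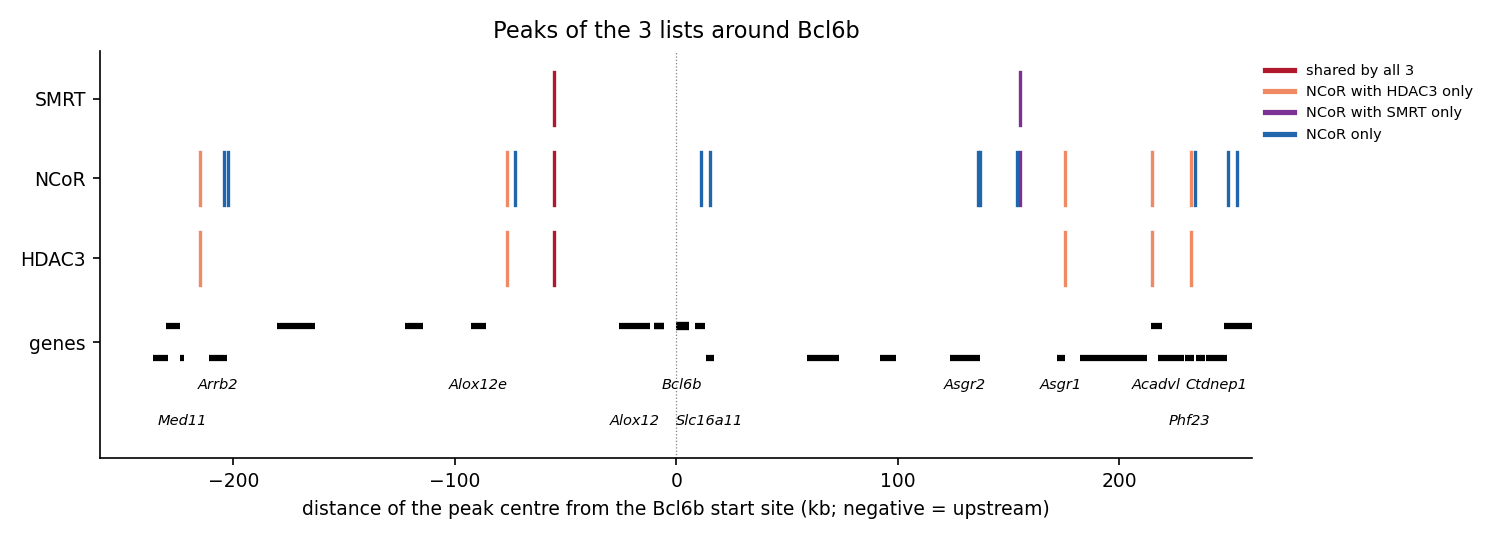
Peak centres of the 3 lists by distance from the Bcl6b start site in kb (negative is upstream), with protein-coding genes as black bars, those transcribed the same way as Bcl6b on the upper line. A gap of 66.7 kb without any peak includes Bcl6b, and the single shared site stands 55.3 kb upstream.

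Bcl6b lay in a gap of 66685 bp between neighbouring sites, and 80.9% of such gaps in the genome were shorter. Long gaps are the more likely to hold any given gene, so this percentage does not make the gap unusual. The site on the downstream side was NCoR alone, 11370 bp from the start site and 5759 bp past the end of the gene, in intron 3 of Slc16a13. NCoR alone also lay 15071 bp from the start site, in coding exon 4 of Slc16a11. Both neighbours encode monocarboxylate transporters of the SLC16 family. The gap also covered the microRNA genes Mir497 and Mir195a, whose starts lie at -4978 and -5303 bp from that of Bcl6b, and the start site of Alox12, an arachidonate lipoxygenase. None of the 18 NCoR peaks had the Bcl6b start site as its nearest one, and an NCoR peak lay nearer to the start site at 41.1% of protein-coding genes.

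The shared site upstream of Bcl6b was centred 55315 bp before the start site, outside any gene and 29701 bp from the start site of Alox12. SMRT and HDAC3 were centred 2 and 46 bp to the lower-coordinate side of NCoR. As printed above, it held a C/EBP match from 0 to 7 bp and an HNF4 half-site from 12 to 20 bp from the NCoR centre, both on its higher-coordinate side and both factors being abundant in hepatocytes. The same motifs occurred together in 131 of all NCoR peaks (0.373%) and in 50 of the 8739 shared ones (0.572%). They were picked because this site held them, and at least 2 of the 9 motifs occurred in 4.47% and 5.97%.

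The 2 other upstream sites within 100 kb were NCoR alone at -72749 bp and NCoR with HDAC3 at -76543 bp, both nearest to Alox12e, a lipoxygenase gene of the epidermis. The latter held an HNF4 half-site. A stretch of 126006 bp without peaks separated them from NCoR alone at the promoter and in intron 1 of Arrb2, the gene of beta-arrestin 2. NCoR with HDAC3 at -215115 bp was 7065 bp from Med11, which encodes a Mediator subunit.

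Most downstream sites lay close to the start sites of other genes. Asgr1 and Asgr2 encode the hepatocyte asialoglycoprotein receptor. NCoR with HDAC3 was centred 1 bp from the Asgr1 start site, in a stretch with a BCL6/STAT match, and NCoR alone lay 70 bp from that of Asgr2, with another peak 993 bp from it in intron 2. Near Asgr2 were also NCoR alone and NCoR with SMRT, 16942 and 17988 bp away. NCoR with HDAC3 lay 336 bp from the nearer of the annotated start sites of Acadvl, the very long chain acyl-CoA dehydrogenase of mitochondrial fatty acid oxidation, in intron 2. Phf23 has several annotated start sites. NCoR alone lay 184 bp from the outermost of them and NCoR with HDAC3, inside the gene, was 251 bp from a later one. The promoter of Ctdnep1, a phosphatase of the nuclear envelope, had NCoR alone at 501 bp. The outermost site, NCoR alone, was in intron 4 of Elp5, 247638 bp from Bcl6b, and the next peak outside the window was 302486 bp away. On the upstream side, the nearest peaks inside and outside the window were 215056 and 260128 bp from the gene.

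Of the 18 NCoR peaks near Bcl6b, 5 were in promoters, 7 were intragenic and 6 intergenic, beside 12.8%, 57.1% and 30% of the NCoR list. The shared class held 1 (5.56%, exact 95% binomial interval 0.141 to 27.3) and NCoR alone held 11 (61.1%, 35.7 to 82.7). Of the 6 HDAC3 peaks 1 was shared (16.7%, 0.421 to 64.1). The upper bounds lie above the shares in the lists, 24.9% for NCoR and 60.4% for HDAC3, so a lower share of shared sites near Bcl6b was not detectable with so few peaks.

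Compared with all protein-coding genes, the Bcl6 window ranked high for all 3 lists and the Bcl6b window lay nearer the middle. With each gene given the same flank, 94.4% of the 21938 genes had fewer NCoR peaks than the 30 of Bcl6, and 71.2% had fewer than the 18 of Bcl6b. The corresponding values were 96.6% and 37% for SMRT, 96% and 60.9% for HDAC3, and 94.3% and 27.8% for NCoR peaks shared by all 3 lists. The median gene had 3 SMRT, 11 NCoR, 4 HDAC3 and 2 shared NCoR peaks. Neighbouring genes count the same peaks, so these percentages describe a position in the genome and are not a test.

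**Figure D4:**
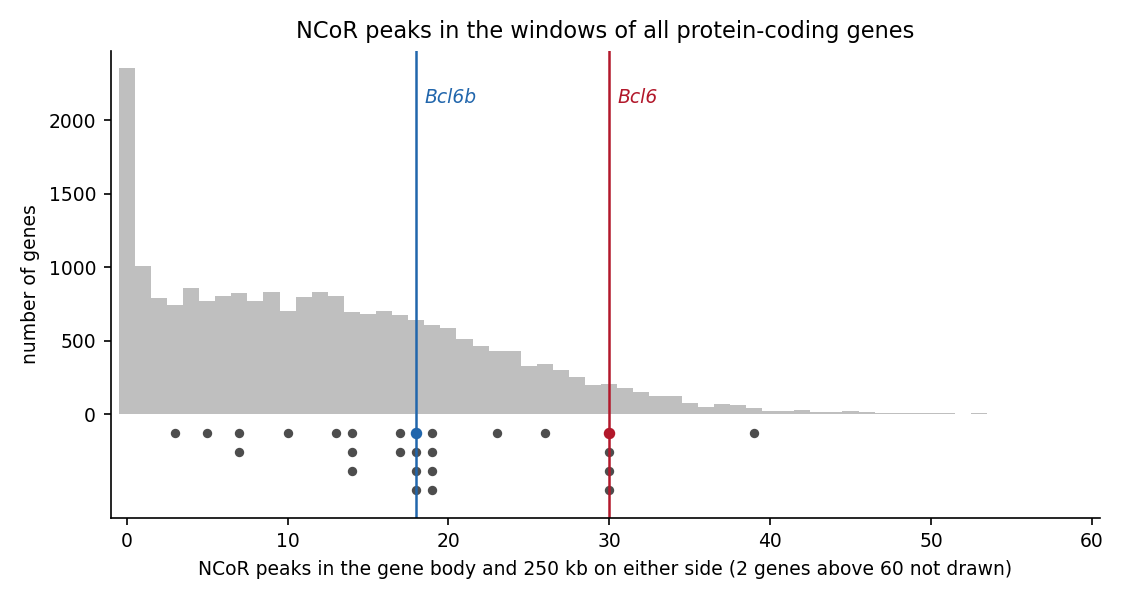
Number of protein-coding genes (bars) by the NCoR peaks in the gene body and 250 kb on either side, with vertical lines at Bcl6 (30 peaks) and Bcl6b (18 peaks) and 1 dot below the axis for each of the 26 BTB-zinc finger genes. The 2 genes with over 60 peaks are not drawn, and 2357 genes have none.

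The 26 genes of a list of BTB-zinc finger relatives, all of them annotated, had a median of 4 SMRT, 18 NCoR, 7 HDAC3 and 4 shared NCoR peaks in their windows. Bcl6 ranked 2 from the top for each of these counts, tied for NCoR with 3 others, Zbtb7a, Zbtb20 and Zbtb46. Zbtb17, which encodes the MYC partner MIZ1, had the most NCoR peaks (39, with 10 shared) and Zbtb18, a repressor of neuronal genes, had the fewest (3, with 1 shared). Bcl6b ranked 12 for NCoR, tied with 3 others, 15 for HDAC3, 21 for SMRT and 22 for shared peaks. Some windows of the family overlap, that of Bcl6b among them, and such windows count some of the same peaks. An NCoR peak lay inside 14 of the 26 genes, Bcl6 among them and Bcl6b not, beside 35.5% of all protein-coding genes. Windows differ in length, and that of Zbtb20 was 1270 kb, with 28 of its 30 NCoR peaks inside the gene. The density of this window was 23.7 NCoR peaks per Mb. It was 57.3 for Bcl6, 57.9 for Zbtb7a, 52.5 for Zbtb46 and 74.5 for Zbtb17.

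A second list held 15 regulators and partners of BCL6, such as STAT and FOXO factors and the subunits of the corepressor complexes. Their windows had a median of 8 SMRT, 24 NCoR, 13 HDAC3 and 7 shared NCoR peaks, and an NCoR peak lay inside 12 of the 15 genes. Stat6, the mediator of interleukin-4 signals, had the most NCoR peaks (50, with 11 shared) and Irf4, a lymphocyte factor that opposes BCL6 in B cells, had the fewest (4, with none shared). The windows of Stat3, Stat5a and Stat5b overlap and each held the same number of NCoR peaks, 32.

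The motifs were searched on both strands in the 200 bp around each NCoR centre. BCL6/STAT stood for TTCCNGGAA, TTCTNAGAA, TTCCNAGAA and its complement TTCTNGGAA. The HNF4 half-site stood for CAAAGGTCA, CAAAGGCCA, CAAAGTTCA and CAAAGTCCA, ERR for TCAAGGTCA and TGAAGGTCA, and FOX for TGTTTAC. HNF6/CUX2 stood for TATTGATT, TATTGATC, TATCGATT and TATCGATC, C/EBP for TTATGCAA, TTACGCAA, TTGTGCAA and TTGCGCAA, and ETS/ELK for CCGGAAGT. DR1 and CTCF were searched as degenerate strings, and a DR1 match can contain an HNF4 half-site.

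Near Bcl6, 13 of the 30 NCoR peaks held at least 1 motif (43.3%, exact 95% binomial interval 25.5 to 62.6), against 30.8% of all NCoR peaks. Near Bcl6b 3 of 18 did (16.7%, 3.58 to 41.4). At least 2 of the 9 motifs were matched in 3 peaks near Bcl6 and 1 near Bcl6b, against 4.47% of all NCoR peaks. BCL6/STAT was matched in 4 peaks near Bcl6 (13.3%, 3.76 to 30.7), those at +283, -7698, -23325 and -91880 bp, against 3.85% of all NCoR peaks and 4.44% of the shared ones. The HNF4 half-site was matched in 6 (20%, 7.71 to 38.6), against 7.85% of all NCoR peaks. These 2 motifs had the largest shares near Bcl6 of the 9 searched. The lower bounds of both intervals fall just below the shares in the list, so a difference was not detectable. In the central 100 bp, the 4 peaks with BCL6/STAT kept a match, against 1.88% of the list, while the HNF4 half-site was matched in 3 near Bcl6, against 4.79%. Of the 4 peaks with BCL6/STAT, 1 was shared and 3 were NCoR alone. FOX was matched in 1 peak near Bcl6 against 7.74% of the list, and C/EBP in 1 against 5.52%. ETS/ELK and CTCF had no match in either window, against 0.757% and 0.512% of the list, and 0 of 30 peaks allows a share of up to 11.6%. The absence of these letters says nothing of the factors.

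**Figure D5:**
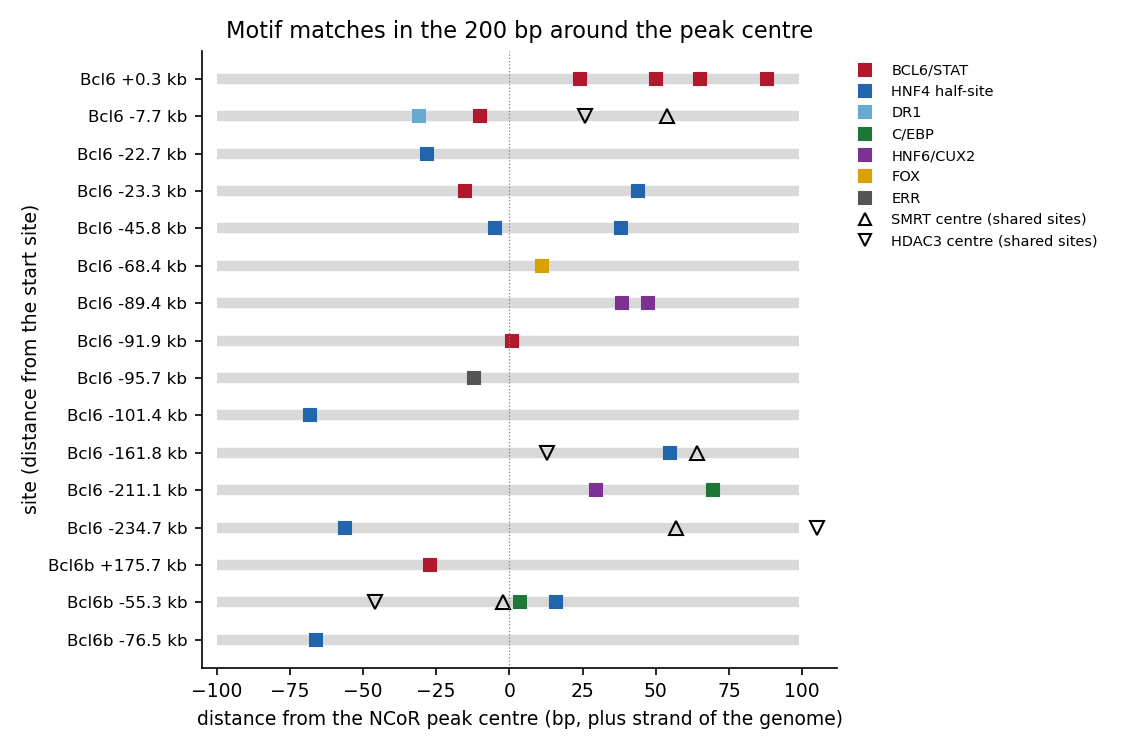
Position of each motif match (coloured squares) relative to the NCoR peak centre in bp, on the plus strand, for the 16 sites of both windows with a match, named by distance from the start site in kb. Open triangles give the SMRT and HDAC3 centres at shared sites, and the site at the start of Bcl6 carries 4 BCL6/STAT matches.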

How the data were processed

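ChIP-seq was performed on crosslinked livers of 3 animals per antibody, per the methods. The authors aligned reads to mm10 with Bowtie, keeping uniquely mapped ones, and called peaks with HOMER on pooled replicates against input, with DESeq2 used across the individual libraries (versions not given in the labels). The deposited files give the chromosome, start and end of each peak, all of 1 length per list (212 bp from start to end for SMRT and HDAC3, 228 bp for NCoR), and no count, score or depth. Positions were read as 1-based with both ends included.

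From these intervals, centres were compared with GENCODE vM21 genes (basic set). A partner was a centre of another list within 200 bp, and sites were joined at 200 bp. Distances of sites from other genes are to the nearest start site of any of their transcripts. Sequence was read from GRCm38, and alternative start sites from the RefSeq table of GRCm38.p6, which listed Bcl6 but not Bcl6b. Exact (Clopper-Pearson) 95% intervals came from scipy 1.17.1. No test was run, since the lists hold no replicates. The scripts were tested on simulated peaks. The named genes were Bcl6, Bcl6b, every protein-coding gene whose start site is nearest to a member peak, and the list genes with the most and fewest NCoR peaks. The noncoding genes and the pseudogene, the tied family genes, Elp5, Stat3, Stat5a, Stat5b and Cish were named after their values were seen. The members and gene lists were chosen with earlier results of these data known.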

Additional observations from a re-analysis of the deposited data

How the results depend on the processing

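Of 79 alternatives to 44 counts and percentages, 44 stayed within 1.5 times the count, or within the 95% interval of the percentage, and 35 did not. The flank set the counts: with 100 kb, Bcl6 had 18 NCoR and 8 HDAC3 peaks, and with 500 kb 56 NCoR, 25 HDAC3 and 21 SMRT peaks, while Bcl6b had 5, 2 and 1 with 100 kb and 40, 13 and 6 with 500 kb. Promoters of 5000 bp on either side took in 10 NCoR peaks near Bcl6, and 12 near Bcl6b with 0 left as intragenic, and those of 1000 bp took in 9 near Bcl6b with 3 intragenic. With noncoding genes included, Bcl6 had the nearest start site for 3 NCoR peaks, since lincRNAs lie among the upstream sites. In the 100 bp motif window the HNF4 half-site was matched in 3 NCoR peaks near Bcl6 and 1 near Bcl6b, and C/EBP in 0 near Bcl6. The other motif counts of both windows, and the counts under partner distances of 100 or 400 bp and with sites joined at 1000 bp, stayed within 1.5 times.

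The percentages of genes with fewer peaks have narrow 95% intervals because of the number of genes. They moved most for Bcl6b among genes with at least 1 NCoR peak, where that of shared peaks went from 27.8 to 19.1. With windows centred on the start site, the values for Bcl6 were 97.3 (SMRT), 95.8 (NCoR), 96.8 (HDAC3) and 95.2 (shared), and for Bcl6b 39.6 (SMRT), 64.1 (HDAC3) and 29.8 (shared). Among genes with at least 1 NCoR peak, they were 96.1, 93.7, 95.5 and 93.6 for Bcl6 and 29.4, 67.8, 56.2 and 19.1 for Bcl6b, in the order SMRT, NCoR, HDAC3 and shared. No paired analysis was possible because the lists pool their replicates, and for the same reason no library could be left out.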
